A study of Bos taurus with 20 samples.

Results

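FIGLA, NOBOX, SOHLH1, SOHLH2, LHX8, POU5F1, OTX2 and TAF4B are transcription regulators known from oocytes, and their transcripts were followed here through the cells of the bovine antral follicle. The members were chosen by gene name, from the name the array gives each probe. Of the 8 listed genes, 7 had probes by name, and SOHLH2 had 0, so SOHLH2 was not measured here. The 7 genes were read by 14 distinct probes on 16 spots, of 22550 named genes, 51307 distinct probes and 61325 spots in all.

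The samples came from bovine follicles of 3 to 6 mm, and comprised theca (TH), granulosa (GC) and cumulus (CC) cells taken at collection, oocytes, and CC detached after 4 h of in vitro maturation (IVM), with 4 arrays of each and 20 arrays in all. TH, GC, CC and oocytes were labelled as immature and received no IVM. The sources used here do not say how many animals, follicles or cells went into each sample, so the p-values measure the spread between these 4 samples per group. In such bulk samples, fewer cells of a type and less RNA per cell cannot be told apart.

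In the mouse, FIGLA, NOBOX, SOHLH1, SOHLH2 and LHX8 form a set of germ cell regulators needed for the formation and growth of the first follicles, and the loss of any of them empties the ovary of oocytes. FIGLA, SOHLH1 and SOHLH2 are basic helix-loop-helix proteins that bind E-box motifs, FIGLA as a partner of the E proteins, and NOBOX, LHX8 and OTX2 carry homeodomains. POU5F1 is the POU factor of pluripotent cells that germ cells also keep, and TAF4B is a germ cell paralog of TAF4, a subunit of the general transcription factor TFIID.

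On genome build UMD 3.1, the transcripts that the probes were designed on lie at chr11:13612910-13619093 (FIGLA), chr4:108488052-108493401 (NOBOX), chr11:103346206-103350967 (SOHLH1), chr3:69890357-69916293 (LHX8), chr23:27769893-27774392 (POU5F1), chr10:69458818-69462865 (OTX2) and chr24:30850955-30957456 (TAF4B). Each span is that of the whole transcript. Every gene had 2 probes of 60 bases, and none of the 14 sequences was also listed for another gene on the array. The first 30 bases are shown for 5 genes with a result below that turns on a single probe, all in lower case because no base is singled out.
SOHLH1 probe 1: acatccagtgtgatgacgagggtgaggccc
SOHLH1 probe 2: gggggctcattcttctttacccactccttg
TAF4B probe 1: agtaggggagaccattgtttacagttataa
TAF4B probe 2: actgccaaagaagatgtcgagagcgttgtt
POU5F1 probe 1: accttgaacaatttgccaagctcctaaagc
POU5F1 probe 2: aaacgactatctgccgttttgaggctttgc
NOBOX probe 1: cagggctcgaagttgaaggaaagactggac
NOBOX probe 2: gttatttgctctccttgctccacagccgct
OTX2 probe 1: ttgtgaggggaaggaaggaaggacatagcc
OTX2 probe 2: tccttggttgaatcttaggaatggacagtg

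A level below is the log2 of a probe's processed intensity minus the 75th percentile of its array, and a gene's level is the median over its spots. A probe counts as above background where the scanner software marked it as well above background. The share of probes above background was 59.1 to 61.8% in TH, 56.7 to 60.0% in GC, 58.9 to 62.8% in CC, 54.2 to 58.3% in CC after IVM and 49.3 to 68.8% in oocytes. The 75th percentile of intensity was 1521 to 2891 on the oocyte arrays, 284.5 to 395.9 after IVM and 368.1 to 1101 on the others. The 6 oocyte markers GDF9, BMP15, ZP2, ZP3, ZP4 and NLRP5 summed to 248 to 330 on the oocyte arrays (sum of linear scaled levels, in units of the 75th percentile) and to 0.161 to 3.01 elsewhere, so the oocyte label held. All 4 arrays of CC after IVM were alone on 1 of 3 slides, so slide and IVM cannot be told apart.

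Of the 7 measured genes, 6 were higher in oocytes than in the somatic mean, which averages the TH, GC and CC means (limma, adjusted p under 0.05), against 32.9% of all genes. The 6 were FIGLA, NOBOX, LHX8, POU5F1, OTX2 and TAF4B, and SOHLH1 did not pass the test. The same 6 passed against TH, GC and CC taken singly, where 32.5%, 30.7% and 31.8% of all genes were higher in oocytes. These comparisons share the 4 oocyte arrays. Against CC after IVM 5 of 7 passed (SOHLH1 and TAF4B did not), where 30.4% of all genes were higher in oocytes. The median difference from the somatic mean was 3.86 over the 7 genes and -0.52 over all genes (-0.01 after quantile normalization).

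**Figure D1:**
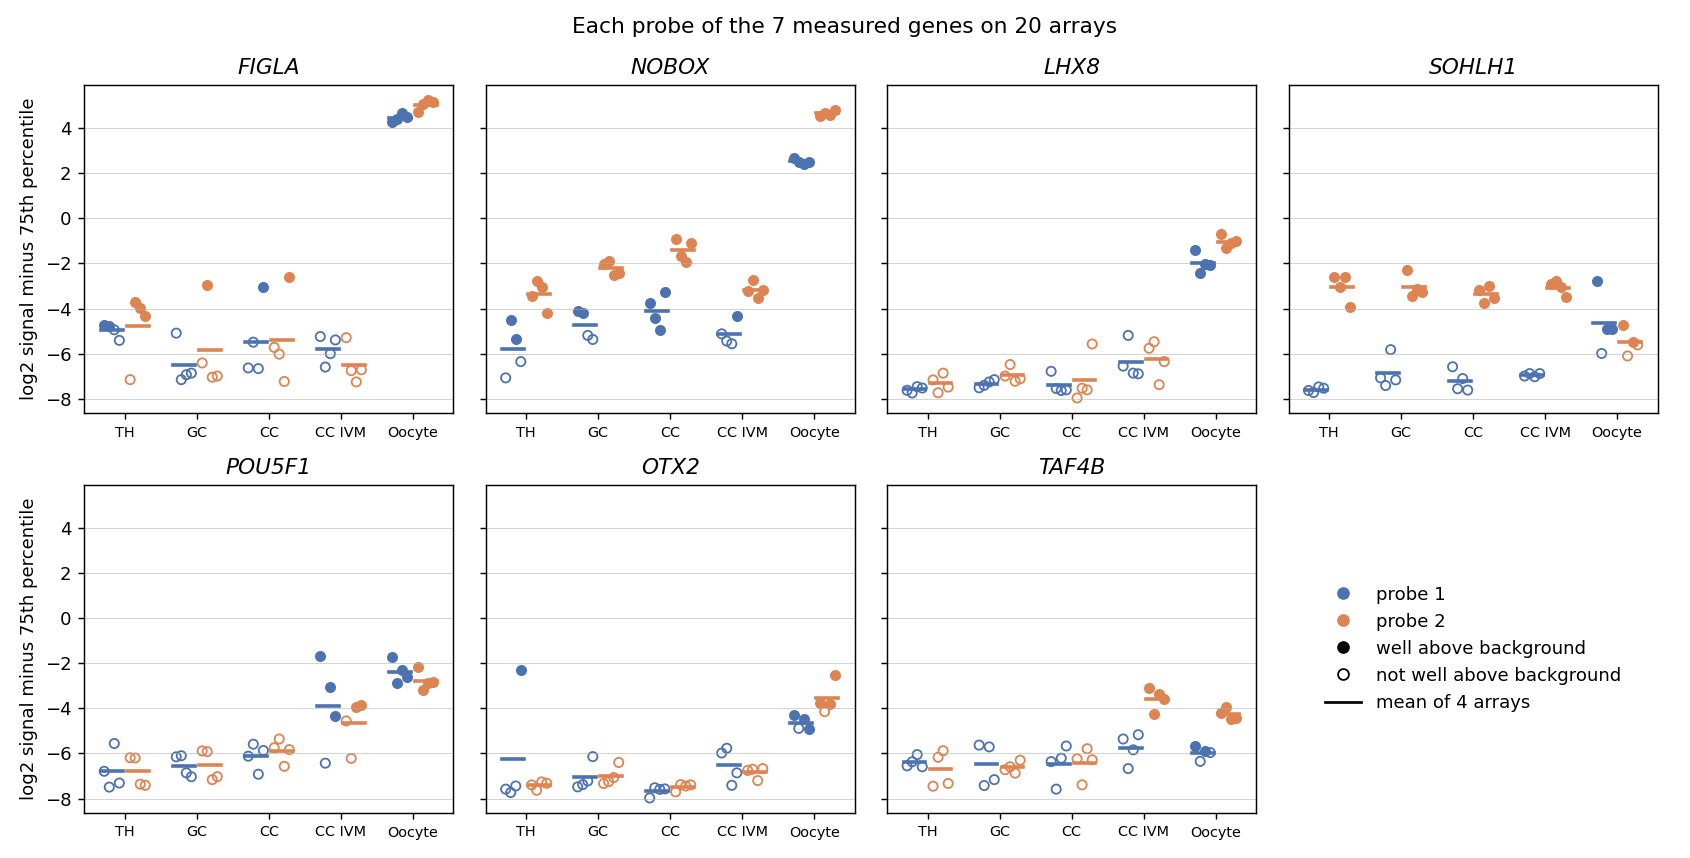
Level of each probe of the 7 measured genes (log2 intensity minus the 75th percentile of the array) on 20 arrays, in 5 groups of 4. Filled points are above background, open points are not, and lines are means of 4 arrays. FIGLA, NOBOX and LHX8 stand apart in oocytes on both probes, and the probes of SOHLH1 run in opposite directions.

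FIGLA, which switches on the zona pellucida genes in the mouse, showed the largest measured log2 difference of the 7 genes. Its level was 4.47, 4.72, 4.94 and 4.80 in oocytes (mean 4.73 ± 0.20 SD, n = 4). In TH it was -5.95, -4.24, -4.46 and -4.88, in GC -5.75, -5.06, -6.99 and -6.92, in CC -6.17, -5.75, -6.95 and -2.83, and after IVM -5.26, -6.67, -6.63 and -6.05. The oocyte arrays lay far above all 16 others without overlap. The difference from the somatic mean was 10.23 ± 0.57 (log2, SE, adjusted p = 1.7e-10), and no fold is given because most GC and CC arrays were not above background. On at least 1 probe, FIGLA was above background on all 4 TH arrays but on 1 GC array (replicate 2), 1 CC array (replicate 4) and no array of CC after IVM, where the oocyte level was at least 713-fold higher. In TH probe 1 was above background on replicates 1 and 2, and probe 2 on replicates 2, 3 and 4. These signals were dim, at intensities of 15.7 to 54.2, where the lowest signal well above background was 10.6 to 29.5 on the TH arrays. The somatic groups did not differ among themselves by the test (TH minus GC 1.30, adjusted p = 0.21; TH minus CC 0.54, adjusted p = 0.67; GC minus CC -0.75, adjusted p = 0.59).

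NOBOX, the homeobox factor that drives oocyte genes such as GDF9 in the mouse, was the member above background on all 20 arrays on at least 1 of its probes and also 132-fold higher in oocytes. Its level was 3.59, 3.58, 3.48 and 3.64 in oocytes (3.57 ± 0.07 SD, n = 4). It was -5.12, -2.97, -4.08 and -5.17 in TH, -3.08, -3.09, -3.81 and -3.83 in GC, -2.36, -2.95, -3.41 and -1.84 in CC, and -3.99, -4.04, -4.35 and -3.28 in CC after IVM. The difference from the somatic mean was 7.05 ± 0.35 (adjusted p = 4.6e-11), and it was 7.91 against TH, 7.02 against GC, 6.21 against CC and 7.48 against CC after IVM.

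Among the somatic groups NOBOX ran from TH through GC to CC, and only the ends of that order passed the test. TH was lower than CC by -1.70 ± 0.43 (adjusted p = 0.0066), a comparison in which 31.8% of all genes were called in either direction. TH and GC did not pass (-0.88, adjusted p = 0.16), nor did GC and CC (-0.81, adjusted p = 0.30). Within slide 1 the TH to CC difference was -1.39 (adjusted p = 0.26), and within slide 2 it was -2.00 (adjusted p = 0.051). None of the other 6 genes was called between somatic groups, and for TH against GC and GC against CC the count was 0 of 7 by limma and also 0 of 7 at an unadjusted p under 0.05, against 26.3% and 9.88% of all genes called after adjustment. The oocyte marker sum was 0.561 to 3.01 in CC, with all 6 above background on each CC array. It was 0.367 to 0.668 in TH and 0.178 to 0.399 in GC. Of the single markers, ZP2 (mean -2.17 in TH, -4.87 in GC) and ZP3 (-3.57, -3.92) were higher in TH. GDF9 (-5.85, -5.43), BMP15 (-4.58, -4.14), ZP4 (-4.32, -4.14) and NLRP5 (-5.97, -5.58) were lower in TH, as NOBOX was. The highest sum and the highest somatic NOBOX and FIGLA levels fell on the same array, CC replicate 4. The part of oocyte RNA in these somatic levels was not tested.

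LHX8, a LIM homeodomain factor, was seen above background in oocytes only among the 5 groups, on every oocyte array and with both probes. Its level was -1.07, -1.87, -1.56 and -1.56 in oocytes (-1.51 ± 0.33 SD, n = 4) and between -7.74 and -5.33 on the 16 other arrays, none of them above background. The oocyte level was at least 13.3-fold higher than the somatic mean (log2 difference 5.78 ± 0.19, adjusted p = 3.1e-13) and at least 9.40-fold higher than CC after IVM (4.79 ± 0.31, adjusted p = 4.6e-11). Under other processing the difference from the somatic mean was smaller, at 2.33 with normexp background correction and 3.30 in the deposited table.

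SOHLH1 showed no called difference at the gene level, and its probes ran opposite ways. The gene level was -3.77, -6.05, -5.20 and -5.26 in oocytes and -5.72 to -4.47 on the other arrays, which overlapped (0.12 ± 0.31 against the somatic mean, adjusted p = 0.73, 95% interval -0.55 to 0.79). Probe 1 was -2.79, -5.99, -4.92 and -4.91 in oocytes, above background on replicates 1, 3 and 4, and was above background on none of the 16 other arrays. Fitted on its own, it was higher in oocytes by 2.57 ± 0.43 (adjusted p = 7.4e-05), at least 1.51-fold, where 29.6% of all probes were higher. Probe 2 was above background on all 16 other arrays and on 2 oocyte arrays (replicates 1 and 3), and was lower in oocytes by -2.33 ± 0.29 (adjusted p = 2.8e-06), where 34.8% of all probes were lower. Before scaling between arrays, the intensity of probe 2 was 32.5 to 57.0 in oocytes and 30.2 to 79.5 elsewhere, ranges that overlapped. The oocyte arrays were brighter as a whole, with a 75th percentile of 1521 to 2891 against at most 1101 elsewhere.

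**Figure D2:**
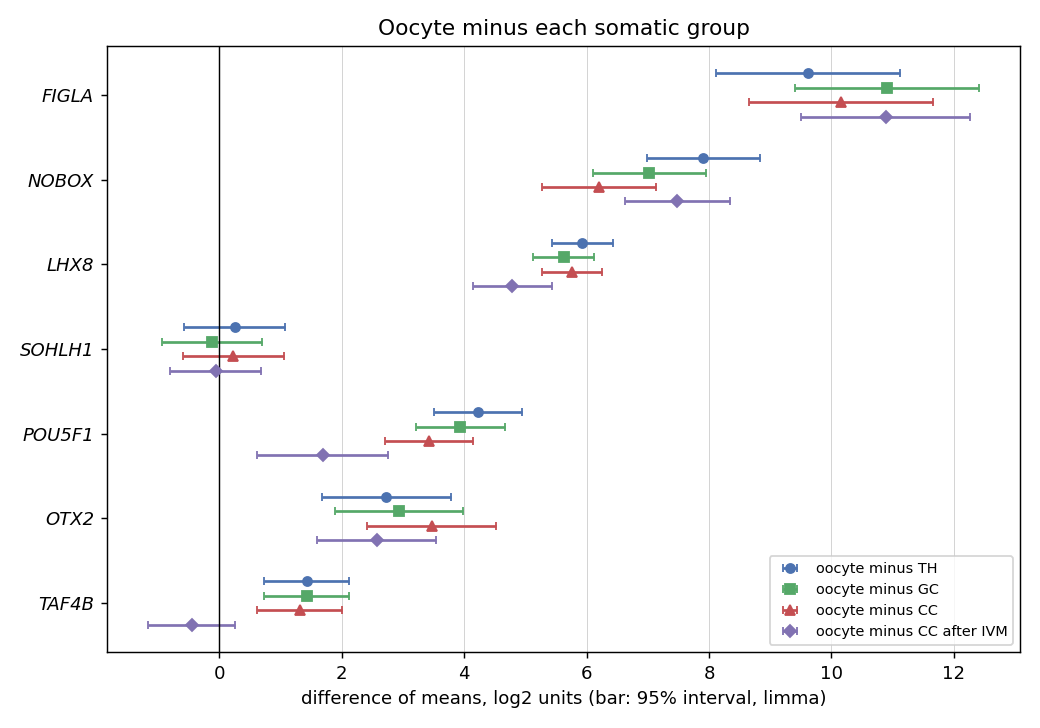
Oocyte mean minus the mean of each other group for the 7 measured genes (log2 units), with 95% intervals from limma. All comparisons share the 4 oocyte arrays. The intervals of SOHLH1 cross 0 in all 4 comparisons, and the interval of TAF4B crosses 0 against CC after IVM only.

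POU5F1 was above background on all 4 oocyte arrays and on no array of TH, GC or CC. Its level was -1.94, -3.02, -2.61 and -2.73 in oocytes (-2.58 ± 0.46 SD, n = 4), -7.36 to -6.46 in TH, -7.03 to -6.01 in GC and -6.74 to -5.48 in CC. The oocyte level was at least 6.36-fold higher than the somatic mean (3.86 ± 0.28, adjusted p = 3.3e-09), and both probes passed on their own, at 4.10 and 3.62. The difference was smaller with normexp background correction (1.30) and in the deposited table (2.04).

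OTX2, a homeodomain factor of the head and the oocyte, was dim. Its level was -4.02, -4.52, -4.13 and -3.73 in oocytes, above background on replicates 1, 3 and 4. On oocyte replicate 2 fewer probes were above background (49.3%) than on the other oocyte arrays. The other 16 arrays lay between -7.84 and -4.81, below the oocyte arrays, and 1 of them was above background, TH replicate 4 at -4.81. That signal came from probe 1 alone, at an intensity of 224 against 2.22 to 3.09 on the other TH arrays. With TH at its measured mean, the oocyte level was 3.16-fold higher than the somatic mean (3.04 ± 0.40, adjusted p = 4.7e-06). This fold is not a strict lower bound, since only 1 TH array was above background. The log2 difference was smaller with normexp background correction (0.74) and in the deposited table (0.99). Against TH, probe 1 alone did not pass (1.62, adjusted p = 0.14) and probe 2 did (3.84, adjusted p = 1.7e-08).

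TAF4B showed the smallest rise among the 6 genes that passed. Its level was -4.95, -5.16, -5.20 and -5.18 in oocytes (-5.12 ± 0.12 SD, n = 4), -7.00 to -5.97 in TH, -7.01 to -6.18 in GC and -7.48 to -5.98 in CC, with no array of these 3 groups above background. The oocyte level was at least 1.09-fold higher than the somatic mean (1.39 ± 0.27, adjusted p = 0.00022). Probe 2 carried this, at 2.31 ± 0.30 (adjusted p = 5.9e-06), and probe 1 did not pass (0.47 ± 0.35, adjusted p = 0.24).

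After 4 h of IVM, POU5F1 and TAF4B were higher in CC and NOBOX was lower. With LHX8, 4 of the 7 genes passed the test (3 to 5 over the alternatives, with 3 under quantile normalization, normexp, the brightest probe and array weights), against 35.8% of all genes called in either direction. The median difference over all genes was 0.37 (0.01 after quantile normalization). LHX8 was above background on no array of either group, so no fold and no direction is read from its call (0.97 ± 0.31, adjusted p = 0.019). FIGLA, SOHLH1 and OTX2 did not pass (-0.73, 0.29 and 0.90, adjusted p = 0.38, 0.53 and 0.13).

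POU5F1 after IVM was -3.13, -6.33, -3.50 and -4.09, against -5.94, -5.48, -6.74 and -5.85 in CC without IVM. Of the arrays after IVM, 3 lay above all CC arrays and were above background, and replicate 2 was neither. The difference was 1.74 ± 0.51 (adjusted p = 0.013), at least 2.22-fold, and was 1.36 (adjusted p = 0.054) without CC after IVM replicate 1. Probe 1 passed alone (2.25, adjusted p = 0.02) in a fit where 17.8% of all probes were higher, and probe 2 did not (1.23, adjusted p = 0.058). Oocytes were higher than CC after IVM by 1.69 ± 0.51 (adjusted p = 0.0065), which probe 2 passed alone (adjusted p = 0.0021) and probe 1 did not (adjusted p = 0.058).

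TAF4B after IVM was -4.22, -5.47, -4.60 and -4.39, above background on all 4 arrays, against -6.30, -7.48, -6.00 and -5.98 in CC. The groups did not overlap. The difference was 1.77 ± 0.34 (adjusted p = 0.00044), at least 1.67-fold. It was carried by probe 2 (2.85 ± 0.37, adjusted p = 1e-05, at least 3.56-fold), while probe 1 was above background on no array of either group (0.69, adjusted p = 0.22). The level in CC after IVM and in oocytes did not differ by the test (oocyte minus CC after IVM -0.45 ± 0.34, adjusted p = 0.22, 95% interval -1.16 to 0.26), but in the deposited table oocytes were lower (-0.57, adjusted p = 0.00037). Before scaling, probe 2 read 74.7 to 186 in oocytes, 16.9 to 38.6 after IVM and less than that, from 3.69, in CC. The oocyte arrays were brighter as a whole, and after scaling probe 2 averaged -4.27 in oocytes and -3.58 after IVM (-0.69, adjusted p = 0.096).

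**Figure D3:**
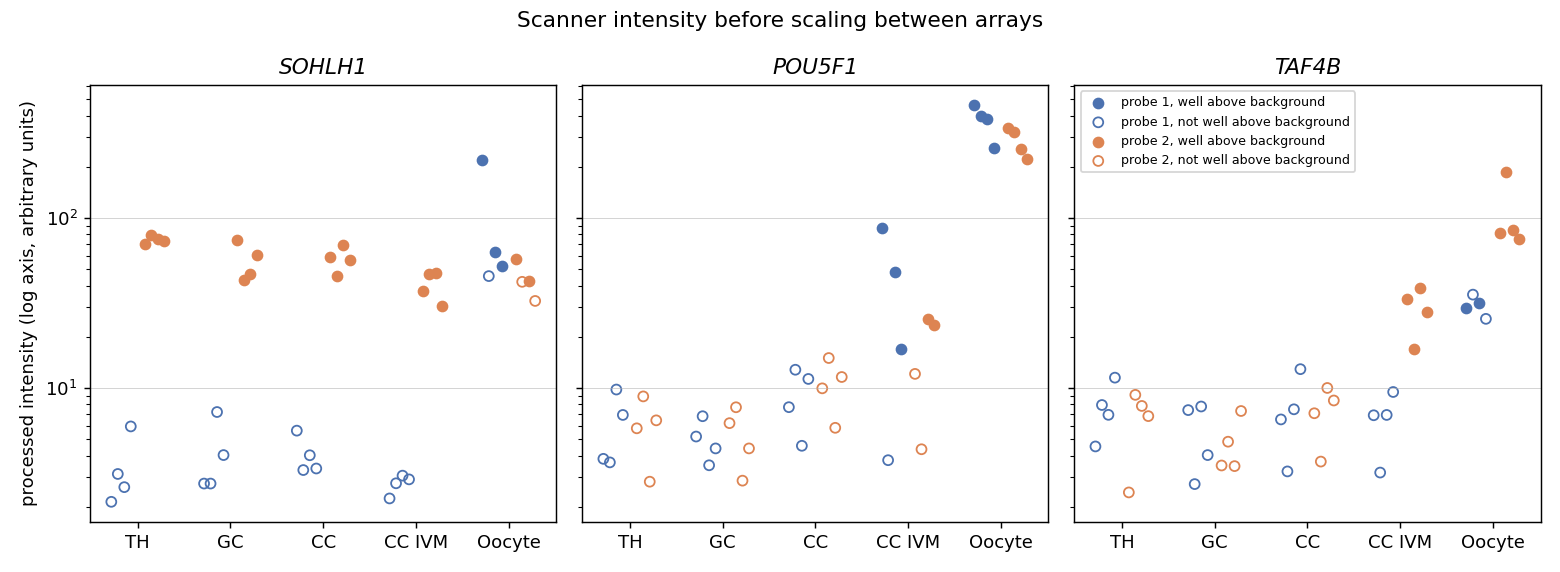
Processed intensity (log axis, arbitrary units) before scaling between arrays for both probes of SOHLH1, POU5F1 and TAF4B on 20 arrays. Filled points are above background. Probe 2 of SOHLH1 reads 30.2 to 79.5 across all groups, and the intensity of probe 2 of TAF4B rises from CC to CC after IVM to oocytes. The oocyte arrays were brighter as a whole, and after scaling probe 2 of TAF4B was not higher in oocytes (mean -4.27) than after IVM (-3.58).

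NOBOX fell in CC after IVM by 1.28 on the log2 scale (SE 0.41, adjusted p = 0.022), and the groups overlapped, since replicate 4 after IVM (-3.28) lay above CC replicate 3 (-3.41). Without CC replicate 1, CC replicate 4 or CC after IVM replicate 3 the adjusted p was 0.059, 0.083 and 0.059. Probe 2 passed alone (-1.75, adjusted p = 0.00014) and probe 1 did not (-1.01, adjusted p = 0.11). The oocyte marker sum was 0.161 to 0.56 after IVM, with 2 to 6 markers above background, against 0.561 to 3.01 in CC. It was thus lower in the group where NOBOX was lower and where POU5F1 and TAF4B were higher. Markers of other cells moved in part. Of 5 markers for theca none passed, with differences from -1.10 (COL1A1) to 0.37 (CYP17A1). Of 5 for granulosa and cumulus, FOXL2 (-3.56, adjusted p = 2e-05), FSHR (-1.25, adjusted p = 0.021) and AMH (-1.04, adjusted p = 0.02) were lower after IVM. INHBA was higher (1.07, adjusted p = 0.018), and CYP19A1 did not pass (-1.26, adjusted p = 0.16). Of 3 blood cell markers, CD68 was higher after IVM (2.15, adjusted p = 0.001). HBB also passed (1.36, adjusted p = 0.042), but was above background on no CC array and on 2 arrays after IVM. No rise is therefore read from the HBB call. PTPRC was above background on no array of either group. The sum of the 3 was 0.448 to 0.966 after IVM against 0.0843 to 0.21. Of 2 endothelium markers VWF was higher (1.72, adjusted p = 0.02) and PECAM1 did not pass (1.14, adjusted p = 0.11), with a sum of 0.0397 to 0.106 against 0.0161 to 0.029. VWF was also high in oocytes, where it averaged -0.59, against -0.02 in TH and -6.42 in CC. Neither VWF nor this sum therefore singles out endothelium here. The part of RNA from oocytes or these cells in the differences was not tested.

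Partners and paralogs of the 7 genes were split between directions. Of 27 measured (29 listed), 12 were higher and 12 lower in oocytes and 3 did not pass, with a median difference of 0.35 (all genes -0.52, with 32.9% higher and 38.3% lower). Under the other scalings 10 to 13 were higher and 11 to 13 lower. Among the E proteins, with which FIGLA pairs, TCF3 was higher (3.71 ± 0.18, adjusted p = 3e-11), and TCF12 was lower (-4.08 ± 0.11, adjusted p = 3.5e-14). TCF12 averaged 2.00 in TH, 0.86 in GC and 0.14 in CC, against -3.08 in oocytes.

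TBPL2, the TBP relative that replaces TBP in growing mouse oocytes, had the largest rise of this list. It averaged 0.28 in oocytes, was above background on no other array, and was at least 46.2-fold higher (7.64 ± 0.12, adjusted p = 4.3e-16). TBPL1, another TBP relative, rose by 4.63 and the TFIID subunits TAF5 and TAF3 by 4.60 and 2.90. TBP itself did not pass (0.50, adjusted p = 0.075). TAF4, the paralog of TAF4B and named for that reason outside the rule on size, was higher by 2.50 ± 0.21 (adjusted p = 2.4e-08). The subunits TAF13 and TAF11 were lower, by -2.14 and -1.85. The other large falls were of CRX, an OTX2 paralog (-3.38), and LDB2, a cofactor of LIM homeodomain proteins (-1.38).

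Genes whose transcripts are known to depend on FIGLA, NOBOX, SOHLH1 or LHX8 in the mouse ovary were mostly higher. Of 14 measured (16 listed), 12 were higher, 0 lower and 2 did not pass, with a median of 8.32 (all genes -0.52, with 32.9% higher and 38.3% lower). FGF8 and GPR149, which did not pass, were each above background on 1 array. In another scaling, to the probes above background on all arrays, 1 was lower. GDF9, ZP2, ZP3 and NLRP5 of this list are also among the oocyte markers above, so the count is not separate from the check of the oocyte label. The order of the largest measured differences is not fixed, because somatic readings were partly below background. They were of NLRP5, a component of the subcortical maternal complex (11.29), and DPPA3, which protects maternal methylation (11.19, at least 971-fold). ZAR1, an RNA-binding maternal effect gene (11.03), OOSP1, an oocyte-secreted protein (10.84), and NLRP14 (10.32) followed. No bound is given for ZAR1, OOSP1 and NLRP14, since a somatic group was above background on only some arrays.

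Of 20 other germ cell and pluripotency regulators, 13 were higher, 3 lower and 4 did not pass, with a median of 3.32 (all genes -0.52, with 32.9% higher and 38.3% lower). Scaled to the probes above background on all arrays, 5 were lower. DDX4, the germ cell RNA helicase, was higher by 7.28, with no bound given because GC was above background on 1 array only. SALL4 was at least 22.6-fold higher (6.31). DAZL, an RNA-binding protein of germ cells, SOX15 and STAT3 were higher by 5.33, 5.16 and 4.64. The 3 that were lower were GATA4, a factor of the somatic follicle cells (-6.58), NR5A2, a nuclear receptor of granulosa cells (-5.45), and TBX3 (-1.29). TBX3 was above background on all 4 TH arrays, on 1 oocyte array and on no GC or CC array. No direction is therefore read for TBX3 against GC or CC. NANOG, a partner of POU5F1 in pluripotent cells, was above background on 0 of 20 arrays.

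**Figure D4:**
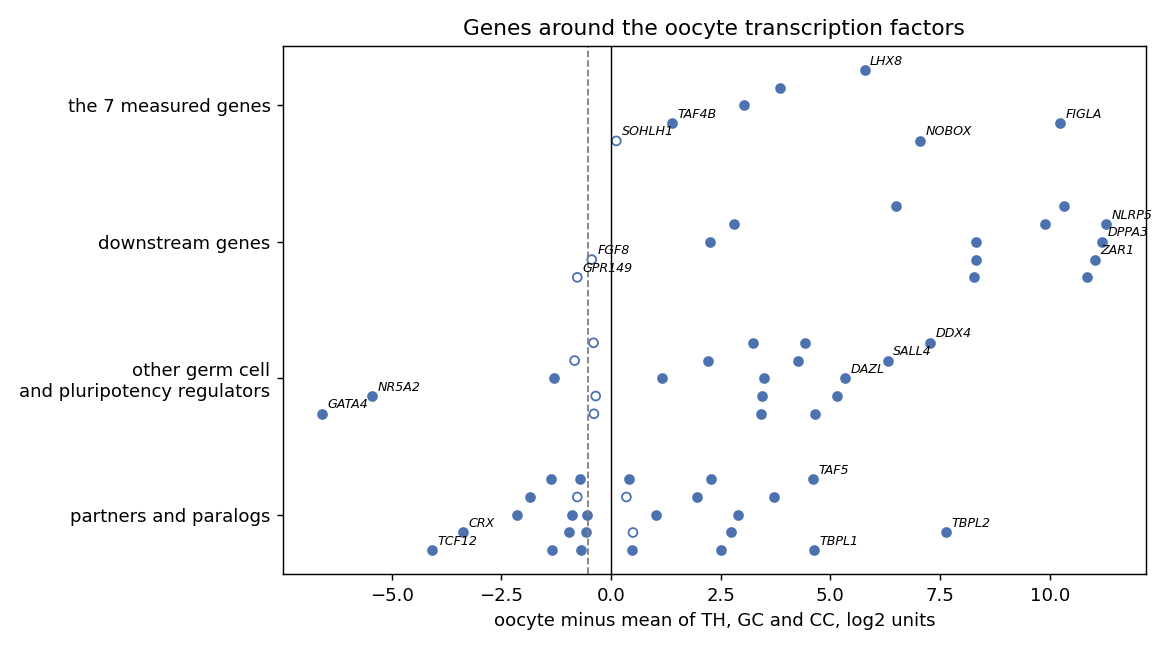
Oocyte mean minus the somatic mean (log2 units) for the 7 measured genes and 3 gene lists. Filled points passed the test, and the dashed line marks the median of all genes at -0.52. The downstream genes reach 11.29, and the partners and paralogs lie on both sides of 0.

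OTX2 and SOHLH1 had no probe above background on all 4 oocyte arrays and were left out of a ranking by likeness. For each other measured gene, the genes with the most similar pattern were sought over 20 arrays and 17480 genes. They were found by the root mean square difference of log2 levels centred on each gene's mean. For FIGLA they included CCDC135 (0.70) and CLDN10 (0.72), and for NOBOX they were STK35 (0.61), FBXO43 (0.65) and KIAA0895 (0.65). For LHX8 they were SYT10 (0.30), LMX1A (0.38), itself a LIM homeodomain gene, and HRG (0.38). For POU5F1 they were KREMEN1 (0.58), SNX19 (0.65) and C1H21ORF91 (0.65), and for TAF4B COPS4 (0.42), GGPS1 (0.42) and ARIH1 (0.43). LHX8, POU5F1 and TAF4B were above background on no array of TH, GC or CC, so in those groups their likeness rests on readings below background.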

How the data were processed

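Total RNA was labelled with Cy3 and hybridised to custom Agilent bovine arrays in 1 colour. Per the labels, the authors read the arrays with Agilent Feature Extraction 10.7.3.1, and the deposited files hold intensity per spot, already background-subtracted. A deposited table of log2 values equalled log2 of the median signal minus its array's median (within 5e-09, column medians 0), and served as an alternative. Outlier spots were left out. The log2 intensity was taken minus the array's 75th percentile over non-control probes and the median over a gene's spots was used. limma 3.58.1 (R 4.3.3) was fitted over 22550 genes with the Benjamini-Hochberg correction and calls at an adjusted p under 0.05, on the 16 arrays without IVM, and on all 20 arrays for comparisons with CC after IVM. The fit was tested on simulated data. The study's methods used an ANOVA on the normalized values, which was run as an alternative.

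Where no probe of a gene was above background in a group, the fold is a lower bound: the brighter group's mean over the dimmer group's, the latter set on each array to the lowest signal well above background, or the gene's own signal if higher. Such a bound holds for the processing given here, and under some alternatives the difference was smaller than the bound. A group with only some arrays above background entered at its measured mean, and a fold over such a group is not a strict lower bound. The number of arrays limits the precision. The members and lists were chosen with earlier results of these data known. Within the lists, the named genes are the 5 largest rises and 5 largest falls that passed. Same-numbered TH and GC arrays deviated together (correlations 0.196 to 0.442 in 4 pairs), and no other 2 groups did so in every pair. The fits of each probe on its own were added after seeing the data. Promoter and protein sequences were not analysed here, and 1 of the genes most like FIGLA is not reported here.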

Additional observations from a re-analysis of the deposited data

Results flagged for a closer look

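Each of the 7 genes in each of the 5 groups was examined for a sample far from the others, 35 in all, and 2 stood apart by Dixon's criterion, where chance gives about 1 in 20. OTX2 in TH replicate 4 was at -4.81, against -7.68 to -7.35 on the other TH arrays, and was the 1 TH array above background. OTX2 in CC replicate 1 was at -7.84, against -7.51 to -7.45 on the other CC arrays, with no CC array above background.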

How the results depend on the processing

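FIGLA, NOBOX, LHX8, POU5F1 and OTX2 were higher in oocytes than in the somatic mean and passed under all 33 settings run for each. TAF4B lost its call in the deposited table (0.16, adjusted p = 0.17) and on probe 1 alone, and against CC after IVM became called in the deposited table. SOHLH1 against the somatic mean turned to -0.10 with the 75th percentile over probes above background on all arrays, -0.30 in the deposited table, -2.33 with the brightest probe and with probe 2 alone, -0.05 within slide 2 and -0.10 with array weights; leaving out 1 array at a time it ran from -0.32 to 0.44. Against CC after IVM SOHLH1 turned to 0.40 with quantile normalization, 0.02 with the array median and 2.29 with probe 1 alone, and leaving out 1 array at a time ran from -0.49 to 0.27. FIGLA in CC after IVM against CC ran from -1.23 to 0.14 when 1 array was left out, the highest without CC replicate 4. The number of the 7 genes called in TH against CC was 2 with quantile normalization and with the array median, 0 within slide 1 and within slide 2, and 1 to 2 when 1 array was left out. In TH against GC it was 1 with the mean over probes and with the brightest probe, and 0 to 1 when 1 array was left out. In oocytes against CC after IVM it was 3 with the brightest probe, where POU5F1 (adjusted p = 0.06) and OTX2 (adjusted p = 0.052) lost their calls. With array weights NOBOX in CC after IVM against CC had an adjusted p of 0.08. Same-numbered arrays deviated together with a correlation over 0.1 in 16 of 40 pairs (13 of 24 without CC after IVM, and in all 4 pairs of TH with GC alone), and 10 of 16 arrays were closest to their own number. With the replicate block 0 of the 7 genes were called in TH against GC, 6 in oocytes against the somatic mean and 4 in CC after IVM against CC. A slide block or a fit within slides could not be had for the comparisons with CC after IVM. Signal over background limits OTX2, SOHLH1 and TAF4B, which lay near it in oocytes.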
